A study of Mus musculus with 6 samples.

Results

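The 5 genes that encode the subunits of the transcription factor NF-κB, Nfkb1, Nfkb2, Rel, Rela and Relb, were followed in embryonic mammary buds exposed to the signalling protein Eda. They were chosen by name as the whole subunit family, and 5 of 5 had a probe set among the 25949 deposited, each named by an Ensembl gene identifier. All 6 samples were epithelial mammary buds of Eda-/- mouse embryos of the B6CBA background at E13.5. These embryos lack the Eda ligand, in the control samples as in the treated ones. Buds were pooled from several embryos, and each embryo gave buds to both conditions. They were then incubated for 4 h without added protein (control) or with 250 ng/mL of Fc-Eda-A1 (Fc-Eda), a recombinant form of the Eda-A1 ligand, in 3 biological replicates a condition. RNA was hybridised to Affymetrix Mouse Exon 1.0 ST arrays, which carry probes along the exons of mouse genes. Every level below is a deposited log2 value, and every difference is Fc-Eda minus control on that scale within the arrays of the same replicate number, called a pair.

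NF-κB acts as dimers of these subunits. Rela, Relb and Rel (c-Rel) encode proteins with a transactivation domain, whereas Nfkb1 and Nfkb2 encode longer precursors that are processed to short DNA-binding subunits. Inhibitor proteins hold the dimers in the cytoplasm until a receptor activates the IκB kinases, and Eda does so through its receptor Edar and the adaptor Edaradd. In the canonical branch dimers of Rela or Rel with the Nfkb1 product are released, and in the non-canonical branch the Nfkb2 precursor is cut so that dimers with Relb form. Several subunit genes are themselves known targets of NF-κB.

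Control replicate 1 stood apart from the other arrays, since its median over all probe sets was 4.99 against 4.80 to 4.83 on the other 5 and its interquartile range was 2.59 against 2.81 to 2.96. Among the 1000 probe sets nearest in level to each subunit gene, the median difference in pair 1 lay between 0.05 at the level of Relb and 0.14 at that of Nfkb1. In pairs 2 and 3 it lay between -0.02 and 0.02. The majority of the mesenchyme had been removed by hand, and what remained was not judged, because the identifiers of marker genes are not paired with names here. For the same reason the inhibitors, kinases and target genes of the pathway were not analysed here. In whole buds, fewer cells of a type and less RNA per cell cannot be told apart.

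Of the 5 subunit genes, 5 were higher after Fc-Eda treatment in all 3 pairs, a pattern seen in 13.2% of all probe sets. The mean difference was largest for Relb, at 1.08, followed by Nfkb2 at 0.82, Rel at 0.57, Nfkb1 at 0.41 and Rela at 0.18. Every Fc-Eda array lay above every control array in 4 of them, where 3.98% of all probe sets showed this, and Rela was the exception. In limma with the pairs as a block, 0 of the 5 passed a q-value of 0.05, as did 0% of all probe sets on the higher side. At an unadjusted limma p-value below 0.05, 4 of the 5 were higher, against 708 or 2.73% of all probe sets. The other paired tests named in the study's methods, IBMT and Cyber-T, called Relb and Nfkb2 higher in versions written for this work, as described below. They called 0.339% and 0.624% of all probe sets higher. With pair 1 left out, IBMT called neither gene.

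**Figure D1:**
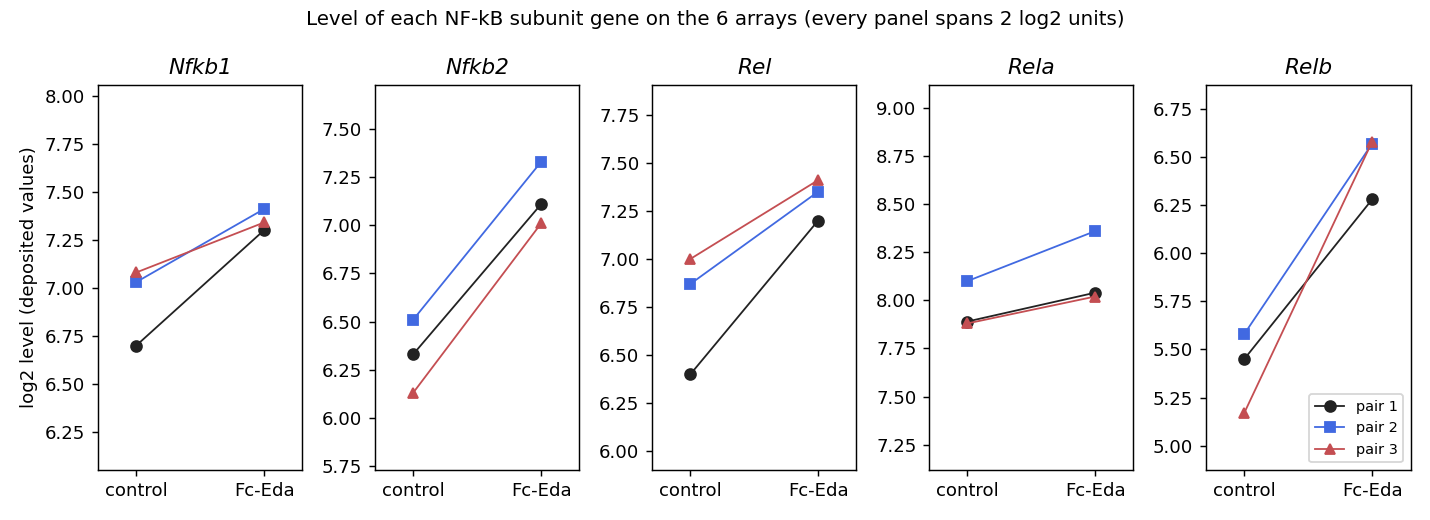
Deposited log2 level (y axis) of each NF-κB subunit gene in control and Fc-Eda buds (x axis), with a line for each of the 3 pairs and the same 2 log2 units of height in every panel. All lines go up, steeply for Relb and Nfkb2 and little for Rela, and the lowest control of Nfkb1 and Rel is replicate 1.

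Relb (ENSMUSG00000002983_at) encodes the partner of the processed Nfkb2 product in the non-canonical branch. Its log2 level in control buds was 5.45, 5.58 and 5.17 in replicates 1, 2 and 3. After Fc-Eda treatment it was 6.28, 6.57 and 6.58. The lowest Fc-Eda value thus stood 0.71 above the highest control value. The means were 5.40 ± 0.21 and 6.48 ± 0.17 (SD, n = 3), a fold of 2.12. The difference was 0.84, 1.00 and 1.41 in pairs 1, 2 and 3, with a mean of 1.08 and a limma standard error of 0.13 (q = 0.204). Pair 3, with the largest difference, held the lowest of the control arrays and the highest of the Fc-Eda arrays. Only 22 probe sets of the 25949, Relb included, had a mean difference at least as high.

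Nfkb2 (ENSMUSG00000025225_at) encodes the precursor p100, which is cut to p52 and which in its full length also restrains Relb dimers. Its level was 6.33, 6.51 and 6.13 in the control replicates and 7.11, 7.33 and 7.01 in the Fc-Eda replicates. The order of the replicates was the same in both conditions, with replicate 2 highest and replicate 3 lowest. The differences of 0.77, 0.81 and 0.88 had an SD of 0.05 where the median SD over the 1000 probe sets nearest in level was 0.12. The mean of 0.82, a fold of 1.77, had a limma standard error of 0.08 (q = 0.167). By its unadjusted p in limma, 0.000127, Nfkb2 stood at rank 15 of 25949 and Relb at rank 39.

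The promoters of Nfkb2 and Rel are shown because subunit genes are known targets of NF-κB itself. Windows of 300 bases, from 250 before to 50 after an annotated start, were taken from a RefSeq table for build GRCm38.p6, in which 3 of the 5 genes matched, Nfkb2, Rel and Rela. They were searched on both strands for the κB consensus motif of 10 bases, GGGRNNYYCC. Here R is a purine, Y a pyrimidine and N any base. Capitals mark the matches, with overlapping matches joined. The first 2 of the 3 Nfkb2 windows are printed, at chr19:46304487-46304786 and chr19:46305445-46305744, both on the plus strand.
Nfkb2, upstream start: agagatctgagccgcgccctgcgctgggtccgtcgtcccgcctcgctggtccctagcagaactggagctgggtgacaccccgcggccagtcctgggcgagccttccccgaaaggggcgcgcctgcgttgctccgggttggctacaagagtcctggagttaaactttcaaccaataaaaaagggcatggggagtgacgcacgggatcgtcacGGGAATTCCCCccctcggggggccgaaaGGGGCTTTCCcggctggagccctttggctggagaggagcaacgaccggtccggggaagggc
Nfkb2, second start: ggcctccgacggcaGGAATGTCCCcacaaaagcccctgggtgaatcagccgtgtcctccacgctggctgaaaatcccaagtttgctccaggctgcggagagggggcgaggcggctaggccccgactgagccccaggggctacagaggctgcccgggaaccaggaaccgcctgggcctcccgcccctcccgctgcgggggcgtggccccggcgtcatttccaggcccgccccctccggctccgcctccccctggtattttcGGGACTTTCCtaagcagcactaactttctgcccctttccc
The upstream window held 2 separate stretches, an 11-base one of 3 overlapping matches from -39 to -29 and a single match from -11 to -2 relative to the start. The second held a match on the opposite strand from -236 to -227 and 1 on the gene's strand from 11 to 20 after the start. The latter is also the only match in the third window, which overlaps the second. A match was held by 8.46% of all 32851 RefSeq windows, and 0.521% held at least 2 separate stretches. These matches are letters in a window and were not tested for binding.

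Rel (ENSMUSG00000020275_at) encodes c-Rel, a subunit best known from lymphoid cells. Its level was 6.40, 6.87 and 7.00 in the control replicates and 7.20, 7.35 and 7.41 in the Fc-Eda replicates. The control values spread over 0.60, more than in any other of the 5 genes, with replicate 1 lowest, and the Fc-Eda values spread over 0.21. The differences were 0.80, 0.49 and 0.41, with a mean of 0.57, a fold of 1.48 and a limma standard error of 0.11 (q = 0.386). The lowest Fc-Eda array lay 0.20 above the highest control array. The largest difference was in pair 1, whose control array stands apart, and after cyclic loess normalization it became 0.69 while those of pairs 2 and 3 stayed at 0.49 and 0.41. The single Rel window, at chr11:23770920-23771219 on the minus strand, held 1 stretch of 3 overlapping matches from -92 to -82.
Rel: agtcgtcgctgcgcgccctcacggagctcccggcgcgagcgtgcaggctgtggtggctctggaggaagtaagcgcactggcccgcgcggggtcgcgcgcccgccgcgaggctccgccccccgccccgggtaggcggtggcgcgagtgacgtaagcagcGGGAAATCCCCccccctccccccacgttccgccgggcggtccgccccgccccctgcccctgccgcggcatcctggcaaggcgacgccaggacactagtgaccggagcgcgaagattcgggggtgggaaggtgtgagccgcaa
The Rela window held no match to these letters.

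Nfkb1 (ENSMUSG00000028163_at) encodes the precursor p105, the source of p50 in the canonical dimers. Its level was 6.70, 7.03 and 7.08 in the control replicates and 7.30, 7.41 and 7.34 in the Fc-Eda replicates. As for Rel, control replicate 1 was the lowest array, and the 3 Fc-Eda arrays lay within 0.11 of each other. The differences were 0.60, 0.37 and 0.26, with a mean of 0.41, a fold of 1.33 and a limma standard error of 0.10 (q = 0.473). After cyclic loess the difference of pair 1 was 0.48, and the mean 0.37. A mean difference at least as high was seen in 1.18% of all probe sets, against 0.524% for Rel.

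Rela (ENSMUSG00000024927_at) encodes p65, the main transactivating subunit of the canonical dimers. Its level was 7.89, 8.10 and 7.88 in the control replicates and 8.04, 8.36 and 8.02 in the Fc-Eda replicates. Replicate 2 was the highest in both conditions, and its control array lay above both other Fc-Eda arrays, so that the groups overlapped. The differences of 0.14, 0.26 and 0.13 had a mean of 0.18 and a limma standard error of 0.08 (q = 0.742). The 95% interval of the difference in limma reached from -0.03 to 0.39 and included 0. The difference of pair 1 was of the size of the shift of 0.13 at this level in that pair, and fell to 0.02 after cyclic loess. A mean difference at least as high as that of Rela was seen in 6.72% of all probe sets.

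**Figure D2:**
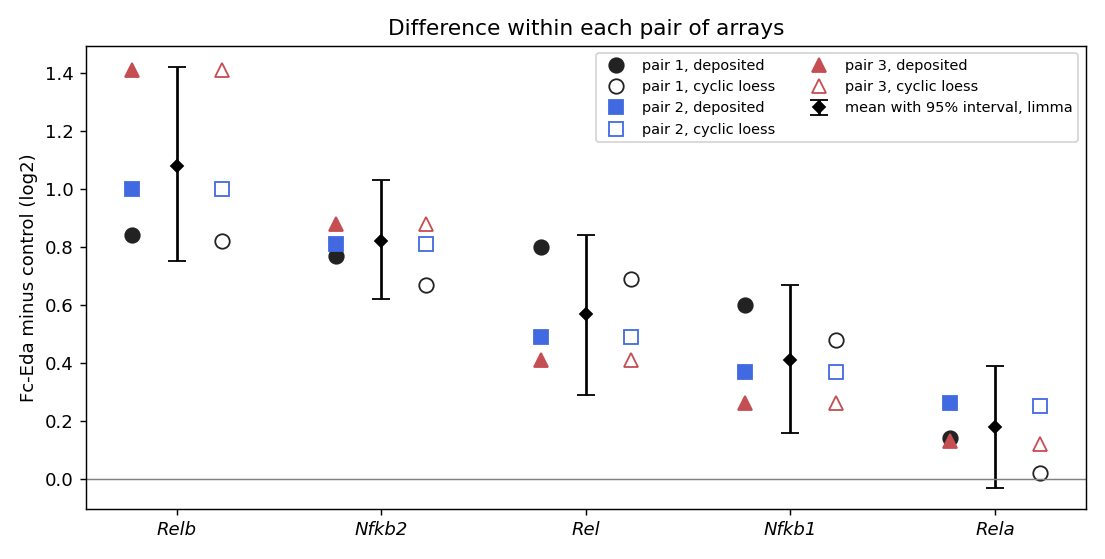
Fc-Eda minus control in log2 units (y axis) for each subunit gene (x axis), as deposited (filled symbols) and after cyclic loess (open symbols), with the mean and its 95% interval from limma as a diamond with bars. The interval of Rela, from -0.03 to 0.39, includes 0 and those of the other 4 genes do not. The intervals are not adjusted for the number of probe sets, and no gene passed the q-value threshold in this fit. Cyclic loess lowers the pair 1 symbols of all 5 genes, that of Rela to 0.02.

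The order of the differences was set beside their spread over pairs. Relb had a larger difference than each other member in 3 of 3 pairs, although over Rel in pair 1 the gap was 0.04 and over Nfkb2 0.06. Nfkb2 exceeded Nfkb1 in every pair, by 0.17 to 0.62, and Rela by 0.56 to 0.75, but in pair 1 it was 0.03 below Rel. Rel exceeded Nfkb1 in every pair, by 0.11 to 0.20. Rela was the lowest member in every pair, 0.12 to 0.46 below Nfkb1. With 3 pairs an exact two-sided permutation test that flips the sign of each gap can give no p below 0.25, and the orderings are given as a description. The median difference over the 5 genes was 0.57, against -0.02 over all probe sets.

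**Figure D3:**
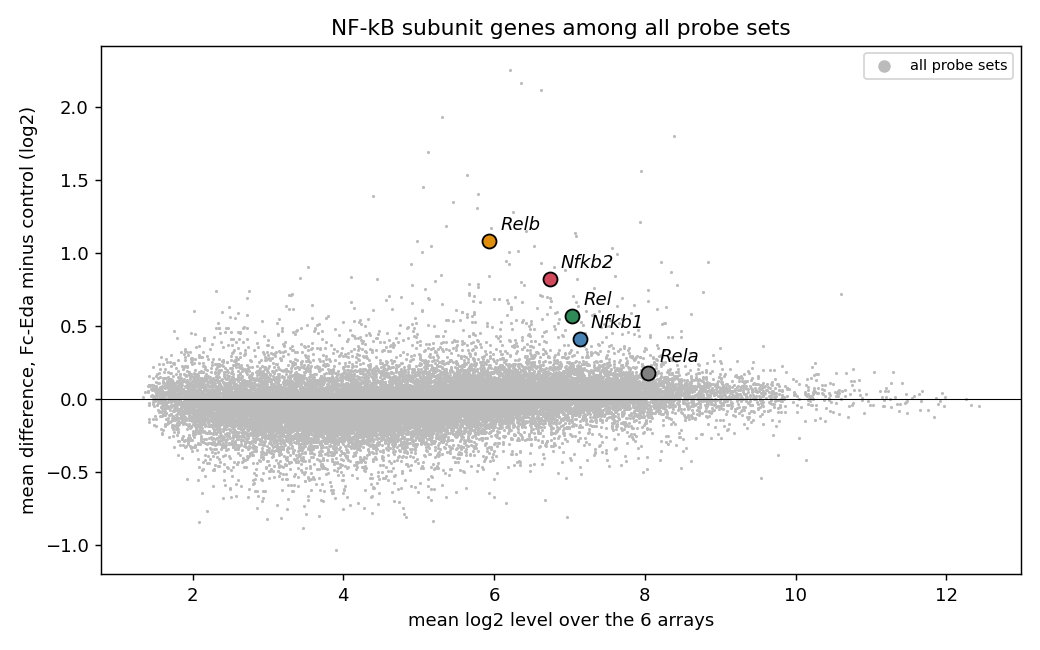
Mean difference between Fc-Eda and control (y axis, log2) against the mean log2 level over the 6 arrays (x axis) for all 25949 probe sets in grey and the 5 subunit genes in colour. Relb, at 1.08, and Nfkb2, at 0.82, lie among few grey points, with 22 and 46 probe sets at least as high, and Rela, at 0.18, lies within the grey cloud, with 1744.

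Over the 6 arrays Relb was most like Nfkb2 among the subunit genes, and Rel most like Nfkb1. Likeness was measured as the root mean square difference between probe sets after each was centred on its own mean. By this measure Nfkb2 was at rank 9 of 25948 among the probe sets most like Relb, at 0.178 log2 units, and Relb at rank 27 among those most like Nfkb2. Nfkb1 was at rank 8 among the probe sets most like Rel, at 0.114, and Rel at rank 100 among those most like Nfkb1. The lowest array of Relb and Nfkb2 was control replicate 3, and that of Rel and Nfkb1 was control replicate 1. The largest difference of Relb and Nfkb2 was that of pair 3, and the largest of Rel and Nfkb1 that of pair 1. With each array centred on its median, the largest of Nfkb2 was instead that of pair 1, with 0.96, 0.80 and 0.88 in the 3 pairs. After cyclic loess the ranks were 13 and 45 for Relb and Nfkb2, and 17 and 263 for Rel and Nfkb1. Without pair 1, on 4 arrays, they were 30 and 101, and 122 and 550. These ranks describe 6 arrays and were not tested. Rela lay at 0.182 from Nfkb1, at rank 1802 among the probe sets most like Nfkb1, and Nfkb1 at rank 8363 among those most like Rela. The other distances between the 5 genes were larger, from 0.277 between Nfkb2 and Nfkb1 to 0.472 between Relb and Rela. Rel and Nfkb1 still stood at ranks 142 and 212 among the probe sets most like Relb, and at 244 and 186 for Nfkb2. From the other side, Relb and Nfkb2 stood at ranks 10247 and 2801 for Rel, and at 21694 and 10997 for Nfkb1. The nearest probe set to Nfkb2 was ENSMUSG00000023947, at 0.0241 and with differences of 0.74, 0.80 and 0.81, and the nearest to Relb was ENSMUSG00000027215, at 0.0863 and with differences of 0.62, 0.94 and 1.23.

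**Figure D4:**
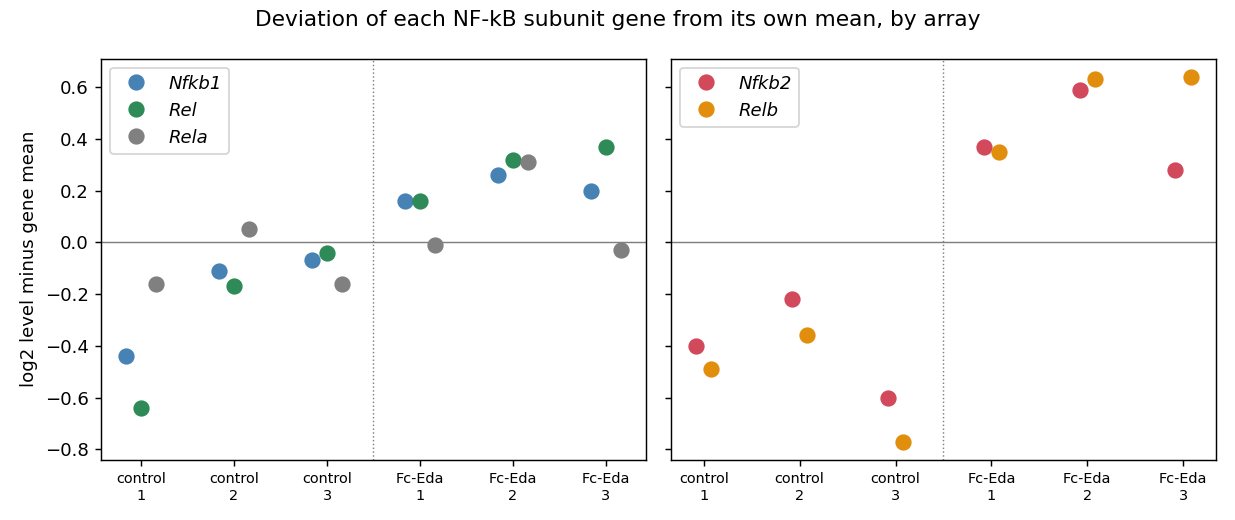
Log2 level of each subunit gene minus its mean over the 6 arrays (y axis) on each array (x axis), with Nfkb1, Rel and Rela on the left and Nfkb2 and Relb on the right. Control replicate 1 is lowest for Nfkb1 (-0.44) and Rel (-0.64), and control replicate 3 for Nfkb2 (-0.60) and Relb (-0.77).

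The study's methods name limma, IBMT and Cyber-T, each in paired form. IBMT lets the expected variance follow the level, and a Cyber-T type test averages the spread of probe sets of like level. IBMT called 2 of the 5 genes higher, Nfkb2 (q = 0.00769) and Relb (q = 0.0213), where it called 0.339% of all probe sets higher. Limma with an intensity trend and robust moderation called the same 2, with q = 0.00817 for Nfkb2 and q = 0.0217 for Relb and 0.347% of all probe sets higher. The Cyber-T type test called 3, with q = 0.000378 for Nfkb2, q = 0.000896 for Relb and q = 0.0201 for Rel, against 0.624% of all probe sets. Nfkb1 missed the threshold in each of these 3 tests, most narrowly with q = 0.0566 in the Cyber-T type test, and Rela had q = 0.448 or more. With a pair left out these calls varied, among the members and among all probe sets. Without pair 1 IBMT called 0 of the 5 and 0% of all probe sets higher, with Nfkb2 at a difference of 0.85 (q = 0.164) and Relb at 1.20 (q = 0.199). It called 3 of the 5 without pair 2, against 0.613% of all, and 4 without pair 3, against 0.987%. Limma with trend called 0 and 0% without pair 1, 4 against 0.917% without pair 2 and 4 against 0.94% without pair 3. The Cyber-T type test called 4 against 1.3%, 2 against 0.316% and 4 against 0.301%. On values normalized by cyclic loess IBMT called Nfkb2 alone (q = 0.0475), at a difference of 0.79, while that of Relb stayed at 1.08 (q = 0.088), and 0.0694% of all probe sets were called higher.

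**Figure D5:**
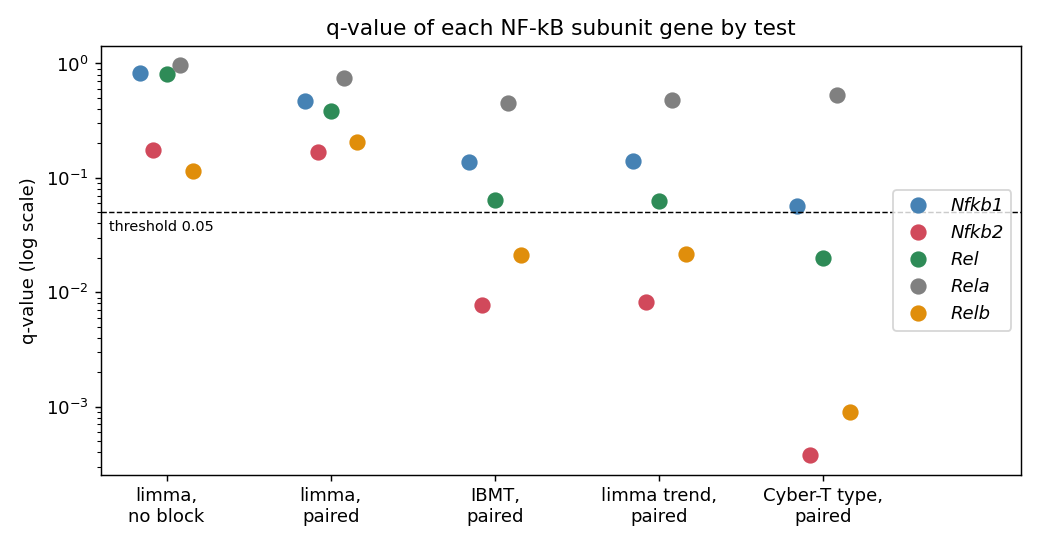
Storey q-value on a log scale (y axis) of each subunit gene under 5 tests on the deposited values (x axis), with the threshold of 0.05 as a dashed line. Nfkb2 and Relb lie below the line in IBMT, limma with trend (and robust moderation) and the Cyber-T type test, Rel in the Cyber-T type test alone, and no gene in limma with or without the block.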

How the data were processed

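Expression was measured on 6 Affymetrix Mouse Exon 1.0 ST arrays, 3 per condition. Per the labels and the values, the deposited data are log2 levels, a single value for each array and Ensembl gene identifier. The submitters' processing notes name RMA, with no version, and the quartiles of the arrays differ, so they are not quantile normalized at this level. The subunit genes and all lists were chosen with earlier results of these data known, and the gene names of the 5 identifiers come with that choice. The reference table pairs 0 of 25949 identifiers with a symbol, so the planned lists of pathway and cell type marker genes were not analysed. No column of the authors' own tests was used.

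The model, run in R 4.3.3 with limma 3.58.1, held treatment and the replicate number. The numbers pair the arrays, since the buds of an embryo were divided between the conditions, and the deviations of paired arrays correlated with r = 0.0793, 0.291 and 0.287. P-values over all probe sets became q-values by Storey's method, with a spline of 3 degrees of freedom and a threshold of 0.05. IBMT (loess span of 0.75, variances floored at 1e-12) and the Cyber-T type test (window of 101, prior weight of 10) were written out from their formulas and may differ from the authors' programs. The tests were tested on simulated data. No detection call was available to this work, so a level says nothing about background. Precision is limited by the 6 arrays. Levels of different genes are not compared, since probes differ. The rule for named genes was the 5 members and the probe sets most like them. Figures were drawn with matplotlib 3.10.9.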

Additional observations from a re-analysis of the deposited data

How the results depend on the processing

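The direction of the 5 differences was the same under every alternative run, 27 settings a gene with the reported one. Only quantile normalization, centring and cyclic loess could have changed it. The other settings averaged pair differences that were all positive, so their direction was fixed. Limma as reported called 0 of the 5 genes higher, and so did Benjamini-Hochberg adjustment, the methods' t-test with q-values, quantile normalization, cyclic loess, array weights, the filter at the 25th percentile of level and the fit with no replicate block, in which q was 0.116 for Relb and 0.175 for Nfkb2. Of all probe sets these settings called 0% higher, except array weights with 0.0424% and no replicate block with 0.0116%. Limma with trend and robust moderation, IBMT, centring on the median and the filter at the median level each called 2, Relb and Nfkb2, at differences of 1.08 and 0.82, and of 1.14 and 0.88 after centring. Centring called 0.216% of all probe sets higher and the filter at the median level 0.655% of 12975. Centring also raised the pair 1 difference, from 0.84 to 1.02 for Relb and from 0.77 to 0.96 for Nfkb2. Before centring, the probe sets nearest in level to Relb and Nfkb2 already had median differences of 0.05 and 0.11 in that pair. Limma with trend called 0.347% of all probe sets higher and IBMT 0.339%. The Cyber-T type test called 3, with Rel at 0.57 added, against 0.624% of all probe sets. The rule of at least 1 of 3 tests repeats these calls, and its share of all probe sets was not counted. IBMT after cyclic loess, chosen after seeing the data, called 1, Nfkb2 at 0.79, and not Relb, whose difference stayed at 1.08. The cause was not tested.

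With any single pair left out limma called 0 of the 5, and of all probe sets 0%, 0.0193% and 0.0385% without pairs 1, 2 and 3. The other tests on 2 pairs were added after seeing the data and called between 0 and 4, where they called between 0% and 1.3% of all probe sets higher. The 0 were those of IBMT and of limma with trend without pair 1. Without pairs 1, 2 and 3 the differences were 1.20, 1.12 and 0.92 for Relb and 0.85, 0.83 and 0.79 for Nfkb2. They were 0.45, 0.61 and 0.64 for Rel, 0.32, 0.43 and 0.49 for Nfkb1, and between 0.14 and 0.20 for Rela. Without pair 3 the prior of IBMT came out infinite, so that it used no variance of the gene itself. Among the 17 settings planned, the reported one included, Nfkb2 and Relb were past the threshold in 6 each, Rel in 2 and Nfkb1 and Rela in 0. The settings are not separate, since the rule of at least 1 of 3 tests repeats calls of IBMT and the Cyber-T type test. The 2 of Rel thus rest on the Cyber-T type test alone. Among the 10 added, Nfkb2 was past it in 8, Relb in 7, Rel in 6, Nfkb1 in 5 and Rela in 0.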
